A study of Mus musculus with 4 samples.

Results

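The Wnt ligands, receptors and secreted modulators of the mouse cochlea were taken by gene name, as the Wnt, Frizzled, Sfrp, Dkk and R-spondin families together with *Wif1*, *Lrp5*, *Lrp6*, *Ror1*, *Ror2*, *Porcn*, *Wls*, *Ctnnb1*, the *Tcf7* family, *Lef1*, *Axin1*, *Axin2*, *Nkd1*, *Nkd2*, *Znrf3* and *Rnf43*. The arrays carried 59 such genes of 30028 gene names, on 75 of 39429 probes. Of these, 55 genes of 21961 had a probe well above background on at least 1 array and were measured with their brightest probe. The other 4, *Wnt8a*, *Wnt8b*, *Dkk4* and *Rspo4*, were not well above background on any array.

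The study depleted outer hair cells (OHCs) with diphtheria toxin (DT), and the arrays addressed which genes change in the cochlea afterwards. Untreated wild-type mice, DT-treated wild-type mice, untreated *Prestin*-*hDTR* mice and DT-treated *Prestin*-*hDTR* mice, all labelled with the strain B6J and 5 weeks of age, gave 1 array each. These groups are called WT, WT+DT, hDTR and hDTR+DT below, and values on all arrays are given in this order. Ratios are those of hDTR+DT mice against hDTR, WT+DT and WT mice, in that order, unless others are named. Treated mice had received DT at 50 μg/kg 7 days before the cochleae were taken. The RNA on each array came from a pool labelled as 8, with 4 females and 4 males, so these arrays hold no replicate check of the differences between groups. *Prestin*-*hDTR* mice, labelled OHC-TRECK, carry the human DT receptor under the promoter of prestin, the motor protein of OHCs, and came from a single transgenic line.

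Wnt ligands are secreted lipid-modified proteins that bind a Frizzled receptor with an Lrp5 or Lrp6 co-receptor. Binding stops the breakdown of β-catenin, which then acts with TCF and LEF proteins on target genes, while other ligands act through Ror receptors and planar cell polarity without β-catenin. In the cochlea the pathway is known for the growth and patterning of the sensory epithelium during development, and *Lgr5* and *Axin2* mark cells there that respond to it.

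The tissue label was checked with markers. *Ocm*, which encodes the OHC calcium buffer oncomodulin, had log2 signals of 4.36, 4.21 and 4.35 in WT, WT+DT and hDTR mice and of 1.97 in hDTR+DT mice. All log2 signals are relative to the 75th percentile of the array, and signals are compared between arrays for the same probe only. *Ocm*, *Strc*, *Chrna9* and *Chrna10*, 4 of 6 OHC markers, were lower by more than 2-fold in hDTR+DT mice than in each other group. The share of all genes lower at 2-fold than in each other group was 0.291%. *Slc26a5*, the prestin gene, was not well above background in hDTR+DT mice, and *Ikzf2* differed from the other groups by at most 0.10. Of 7 supporting cell markers measured on both arrays, 4, 4 and 6 had a ratio above 0, and *Tecta*, which was dim in hDTR+DT and in WT mice, was at least 2.28-fold lower in hDTR+DT than in WT+DT mice. In whole cochleae, fewer cells of a type and less RNA per cell cannot be told apart.

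*Wnt2* was the member with the highest ratio between hDTR+DT mice and each other group. *Wnt2* encodes a ligand that can act through β-catenin. Its probe (mm9, chromosome 6, 17938994 to 17939053) had an intensity of 87.5 ± 14.6 in WT mice, 117 ± 21.4 in WT+DT mice, 58.9 ± 10.7 in hDTR mice and 289 ± 34 in hDTR+DT mice, where the error is that of the scanner software for the single spot. On the log2 scale these signals were -4.96, -4.76, -5.68 and -3.43. The hDTR+DT array stood above the other 3, and the lowest signal was that of hDTR mice.

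The *Wnt2* signal in hDTR+DT mice was 4.76-fold that in hDTR mice (log2 ratio 2.25, software error 0.31). It was 2.51-fold that in WT+DT mice (1.33, software error 0.31) and 2.89-fold that in WT mice (1.53, software error 0.29). With normexp, another background correction, the log2 ratios were 1.53, 0.95 and 1.01, so that the call against WT+DT mice, and with it that against each other group, was lost. The 3 ratios share an array and are not independent of each other. Between the controls, the log2 ratio was 0.20 for WT+DT over WT mice and -0.72 for hDTR over WT mice, so the size of the ratio depended on the control. *Wnt2* is among the genes the study itself picked from these arrays, so its place at the head of the members is not independent evidence.

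Among all genes measured on both arrays, 29 of 18638 (0.156%) had a ratio at least as high as *Wnt2* against hDTR mice. The same held for 69 of 18286 genes (0.377%) against WT+DT mice and for 74 of 18553 genes (0.399%) against WT mice. *Wnt2* lay in the dimmest of 4 equal parts of all genes ordered by mean signal, where 2-fold differences were more frequent. Of the genes there, 8.24% of 4987 were higher by 2-fold or more in hDTR+DT than in hDTR mice, against 0.255% of 5490 genes in the brightest part.

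At 2-fold, *Wnt2* was the 1 member of 55 that was higher in hDTR+DT than in hDTR mice, where 2.71% of all genes were higher. No member of 55 was lower, beside 1.42% of all genes. Against WT+DT mice, 1 member of 50, *Wnt2*, was higher beside 1.52% of all genes, and none was lower beside 1.95%. Against WT mice, *Wnt2* and *Rspo2* were higher, 2 members of 54 beside 2.11% of all genes, and none was lower beside 2.05%. So few members were called that 1 gene moves these shares, and their difference from all genes was not tested. Against each other group together, 1 of 50 members was higher beside 1.22% of all genes, and none was lower beside 0.291%.

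At 1.5-fold, a threshold used as an alternative, 4 of 55 members were higher in hDTR+DT than in hDTR mice (*Rspo2*, *Sfrp2*, *Wnt2* and *Wnt7b*) beside 5.10% of all genes, and 0 were lower beside 3.74%. Against WT+DT mice 3 of 50 were higher (*Rspo2*, *Wnt2* and *Wnt7b*) beside 4.12%, and 1 was lower (*Dkk1*) beside 4.62%. Against WT mice the same 3 of 54 were higher beside 4.69%, and 3 were lower (*Ror1*, *Wnt3* and *Wnt4*) beside 6.01%. *Rspo2*, *Wnt2* and *Wnt7b* were higher than in each other group, 3 of 50 beside 2.90%. Between the control groups, 1 of 54 was higher (*Dkk1*) beside 3.08% and 1 lower (*Ror1*) beside 2.87% in WT+DT against WT mice. In hDTR against WT mice, 1 of 55 was higher (*Wnt3a*) beside 2.36% and 3 were lower (*Ror1*, *Sfrp2* and *Wnt2*) beside 4.65%. In each of the comparisons of hDTR+DT mice, the share of members that were higher was above that of all genes, by fewer than 2 genes, and this was not tested.

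The medians of the members were close to those of all genes. Over the 50 members measured on both arrays, the median log2 ratio of hDTR+DT mice was 0.08 against hDTR, 0.05 against WT+DT and -0.02 against WT mice. The medians of all genes were 0.00, 0.01 and -0.02. Of the 50 members well above background on all 4 arrays, 23 (46%) were higher in hDTR+DT mice than on all 3 other arrays by any amount, beside 33.5% of all genes, and 19 (38%) were lower, beside 35.0%. Both shares of the members were above those of all genes, more so for the higher ones, and this was not tested.

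**Figure D1:**
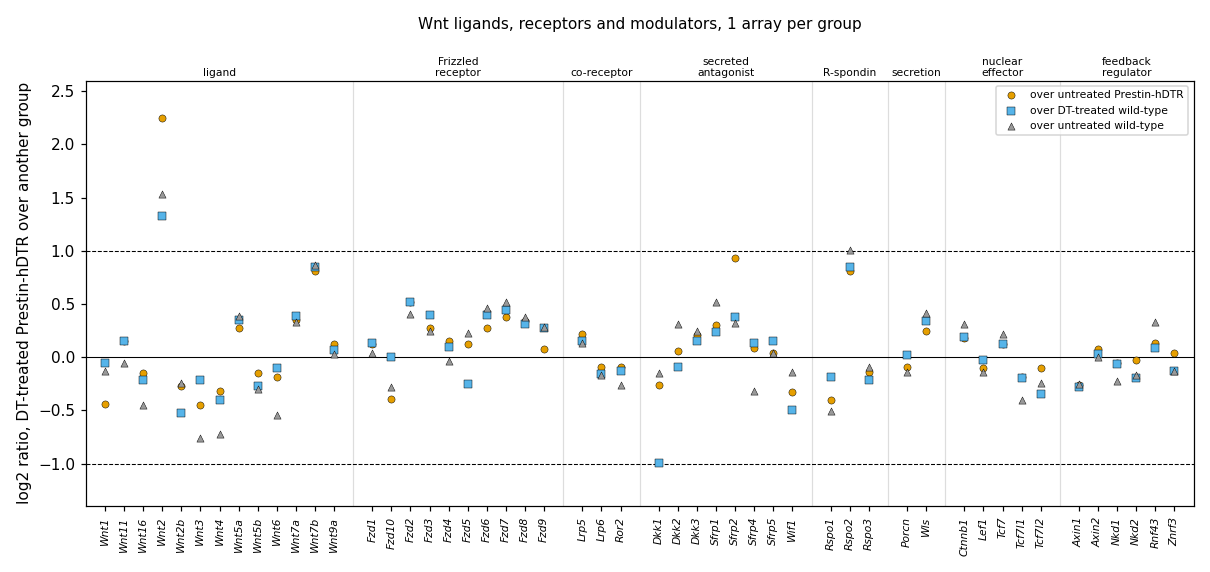
Log2 ratio of the normalized signal in hDTR+DT mice over each of the 3 other groups (circles, squares and triangles), for the 50 members measured on both arrays, grouped by role; dashed lines mark 2-fold. *Wnt2* lies at 2.25, 1.33 and 1.53, *Rspo2* and *Wnt7b* between 0.81 and 1.01, and *Dkk1* at -0.99 against WT+DT mice.

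Of the ligands, 17 of 19 were measured, and 13 of them on all 4 arrays. *Wnt2b*, the nearest paralogue of *Wnt2*, had log2 signals of -3.65, -3.38 and -3.62 in the controls, in the order WT, WT+DT and hDTR, and of -3.90 in hDTR+DT mice. It was thus lowest where *Wnt2* was highest, with log2 ratios of -0.27 against hDTR, -0.52 against WT+DT and -0.24 against WT mice. The software error of these ratios was 0.25 to 0.26, so that 2 of the 3 are within about 1 error of 0.

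*Wnt7b*, a ligand that can act through β-catenin, was named after its values were seen. Its log2 signals were -3.35, -3.33 and -3.29 in the 3 control groups and -2.48 in hDTR+DT mice. The controls lay within 0.06 of each other and the hDTR+DT array stood above them by 0.81, 0.85 and 0.87, below 2-fold. *Wnt5a*, the ligand with the highest mean signal and one best known for signalling without β-catenin, had log2 signals of 1.94, 1.98, 2.06 and 2.33, with ratios of 0.27, 0.35 and 0.39.

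In hDTR+DT mice, 5 of the 13 ligands were above all other arrays (*Wnt2*, *Wnt5a*, *Wnt7a*, *Wnt7b* and *Wnt9a*) and 7 were below them (*Wnt1*, *Wnt2b*, *Wnt3*, *Wnt4*, *Wnt5b*, *Wnt6* and *Wnt16*), beside 33.5% and 35.0% of all genes. The median of the ligands was -0.15, -0.05 and -0.13 against hDTR, WT+DT and WT mice. *Wnt4*, named after its values were seen, was lower from array to array, with log2 signals of 0.27, -0.04, -0.13 and -0.44. Its ratio to WT mice was -0.72 in hDTR+DT mice, -0.40 in hDTR mice and -0.31 in WT+DT mice, so that groups without OHC loss were lower too. *Wnt3* and *Wnt3a*, which can act through β-catenin, were also named after their values were seen. *Wnt3* had the lowest ratio to WT mice among members measured on both arrays, -0.76. WT+DT and hDTR mice were also lower than WT mice, by -0.55 and -0.32. The *Wnt3* ratio of hDTR+DT to WT+DT mice was -0.21, with a software error of 0.28. *Wnt3a* was well above background in hDTR mice only, at least 1.86-fold higher there than in WT mice.

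The Frizzled receptors were all measured on 4 arrays. Of the 10 genes, 7 were higher in hDTR+DT mice than on all other arrays (*Fzd1*, *Fzd2*, *Fzd3*, *Fzd6*, *Fzd7*, *Fzd8* and *Fzd9*) beside 33.5% of all genes, and none was lower beside 35.0%, although quantile normalization and normexp each placed 1 gene lower. Their median log2 ratio was 0.21, 0.29 and 0.27 against hDTR, WT+DT and WT mice, and it was above 0 under each scaling. No Frizzled gene reached 2-fold. Of 6 fibroblast markers, 5, 5 and 4 had a ratio above 0, with medians of 0.24, 0.21 and 0.14. *Col1a1*, another of the 6, was lowest in hDTR+DT mice, with log2 signals of 2.50, 2.75, 1.99 and 1.52. Of 6 neuron markers, 1, 2 and 1 had a ratio above 0, with medians of -0.18, -0.04 and -0.28. The part of these cells in the Frizzled values was not tested. *Fzd9*, with the highest mean signal of the family, had log2 signals of 4.04, 4.05, 4.24 and 4.32, so that hDTR mice were also above WT mice.

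*Fzd2* and *Fzd7* were named after their values were seen. *Fzd2* had log2 signals of 0.70, 0.59, 0.59 and 1.11, with ratios of 0.52, 0.52 and 0.41 and a software error of 0.20. A second *Fzd2* probe was highest in hDTR+DT mice too, at -2.02 beside -2.29, -2.43 and -2.46. A second *Fzd7* probe was at -3.41 beside -3.88, -4.04 and -4.01.

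Of 4 co-receptor genes, *Lrp6* had the highest mean signal, and its log2 signals were 2.30, 2.29, 2.23 and 2.14. A second *Lrp6* probe gave another order, with -1.91, -1.75 and -1.76 in the controls and -1.41 in hDTR+DT mice, so the probes of *Lrp6* disagree on the direction. *Ror1*, a receptor for ligands that act without β-catenin, was the 1 member called at 2-fold between control groups with the settings used throughout. Its intensity was 124 ± 16.6 in WT, 69.7 ± 18.4 in WT+DT, 62.9 ± 10.6 in hDTR and 78.1 ± 18.4 in hDTR+DT mice.

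*Ror1* was not well above background on either DT-treated array. A dim signal was set to the higher of its own value and the lowest signal well above background on its array. A fold against it is a bound. *Ror1* was at least 2.03-fold lower in WT+DT than in WT mice, 1 of 54 members beside 1.12% of all genes, and no member was higher beside 1.56%. In hDTR mice it was 2.19-fold lower than in WT mice, 1 of 55 members beside 2.43% of all genes, and no member was higher beside 1.03%. By this probe *Ror1* was highest in WT mice. A second *Ror1* probe was well above background in hDTR mice only and dim in WT mice, so the probes of *Ror1* disagree. Both calls were lost with normexp and with the mean of all probes.

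Secreted antagonists bind ligands, as Sfrp proteins and Wif1 do, or Lrp co-receptors, as Dkk1 does, and 8 of 9 were measured. *Dkk3*, a divergent member of the Dkk family with the highest mean signal, was at 3.93, 4.02, 3.97 and 4.17 on the log2 scale. *Sfrp2* and *Dkk1* were named after their values were seen. *Sfrp2* had log2 signals of -3.26, -3.32, -3.87 and -2.94, so that its ratio was 0.93 against hDTR mice but 0.38 and 0.32 against WT+DT and WT mice. Like *Wnt2*, *Sfrp2* was lowest in hDTR mice, where its ratio to WT mice was -0.61.

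*Dkk1*, an antagonist of β-catenin signalling at Lrp5 and Lrp6, had log2 signals of -3.26 in WT, -2.42 in WT+DT, -3.15 in hDTR and -3.41 in hDTR+DT mice. The WT+DT array stood above the other 3. Its ratio in hDTR+DT mice was -0.99 against that array and -0.26 and -0.15 against the untreated groups.

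R-spondins bind Lgr receptors and raise the level of Frizzled receptors at the cell surface. *Rspo2* had intensities of 2072 ± 208 in WT, 2681 ± 269 in WT+DT, 2630 ± 263 in hDTR and 4767 ± 477 in hDTR+DT mice, or -0.40, -0.24, -0.20 and 0.61 on the log2 scale. The controls lay close together and the hDTR+DT array stood above them. The log2 ratios were 0.81, 0.85 and 1.01 (1.75-, 1.80- and 2.01-fold) against hDTR, WT+DT and WT mice, each with a software error of 0.20. *Rspo2* was therefore at the 2-fold threshold against WT mice and below it otherwise, and with normexp it was below it against WT mice too (0.97). *Rspo3*, with the highest mean signal of the family, was at 2.07, 2.19, 2.12 and 1.98, and *Rspo1*, named after its values were seen, had ratios of -0.40, -0.19 and -0.51.

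**Figure D2:**
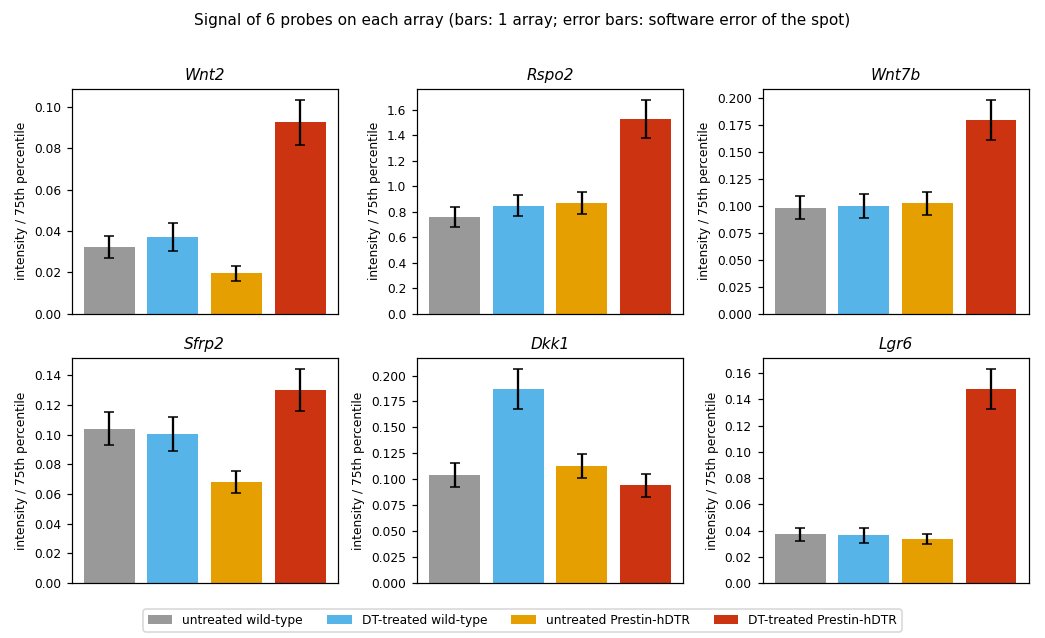
Intensity of the probes of *Wnt2*, *Rspo2*, *Wnt7b*, *Sfrp2*, *Dkk1* and *Lgr6*, divided by the 75th percentile of the array, for each of the 4 groups (1 array each); error bars are the software error of the spot, and each panel has its own axis. hDTR+DT mice are highest in all panels but that of *Dkk1*, where WT+DT mice are highest.

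By their brightest probes, no gene of secretion and no nuclear effector reached 2-fold. *Wls*, which carries ligands to the surface of the secreting cell, had log2 signals of 2.35, 2.43, 2.52 and 2.77, while *Porcn*, the enzyme that attaches the lipid and the other gene of secretion, had ratios between -0.14 and 0.02. *Ctnnb1*, which encodes β-catenin, was at 3.31, 3.43, 3.44 and 3.62. *Lef1*, a partner of β-catenin on DNA and also a target, was at 1.32, 1.21, 1.28 and 1.18.

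The feedback regulators restrain the pathway, and some of them, such as *Axin2*, are also induced by it. *Axin2*, a scaffold for the breakdown of β-catenin, had log2 signals of -1.58, -1.61 and -1.66 in the controls and -1.58 in hDTR+DT mice. Its ratios to hDTR, WT+DT and WT mice, 0.08, 0.03 and 0.00, were below the software error of 0.21. A second *Axin2* probe was at -4.78, -3.77, -4.61 and -4.80, highest in WT+DT mice, and passed 2-fold between WT+DT and WT mice (1.02) and between hDTR+DT and WT+DT mice (-1.04). *Nkd1*, which restrains Dishevelled, was at 1.0, 0.84, 0.83 and 0.78, and *Rnf43*, which removes Frizzled receptors from the membrane, at 1.15, 1.39, 1.35 and 1.49. By their brightest probes, none of the feedback regulators reached 2-fold in any of the 5 comparisons.

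The effect of DT was also set side by side in the 2 genotypes for the 50 members on all 4 arrays. The log2 ratio of treated over untreated mice for *Wnt2* was 2.25 in *Prestin*-*hDTR* and 0.20 in wild-type mice, a difference of 2.05. The differences for *Sfrp2*, *Wnt7b* and *Rspo2* were 0.99, 0.79 and 0.65. Differences of 1 or more were found for 1 member, *Wnt2*, beside 1.29% of all genes, and differences of -1 or less for 1 member, *Dkk1*, beside 1.22%.

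Other genes of the pathway were counted from 5 lists with 83 genes, of which 76 were measured. Of these, 3 of 76 were higher by 2-fold or more in hDTR+DT than in hDTR mice, beside 2.71% of all genes, and 1 was lower beside 1.42%. Against WT+DT mice 2 of 75 were higher beside 1.52%, and against WT mice 3 of 75 beside 2.11%, and none was lower beside 1.95% and 2.05%. Those higher than in each other group were *Lgr6* and *Myc*, which the study also listed from these arrays. With normexp, *Lgr6* kept this call and *Myc* lost it.

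*Lgr6*, a receptor for R-spondins, had intensities of 101 ± 13.4 in WT, 115 ± 18.2 in WT+DT, 101 ± 12.4 in hDTR and 461 ± 48.3 in hDTR+DT mice. The log2 signals were -4.76, -4.79, -4.90 and -2.76. The controls lay within 0.14 of each other, unlike those of *Wnt2*, and the log2 ratios were 2.14, 2.03 and 2.0 against hDTR, WT+DT and WT mice. The related receptor *Lgr5*, named after its values were seen, was at 0.86, 0.98, 0.91 and 1.48, with ratios of 0.58, 0.50 and 0.62.

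Among 20 genes reported as targets of the pathway, 16 were measured and 1 was higher than in each other group, beside 1.22% of all genes. This was *Myc*, a growth regulator with many inputs, at -3.08, -3.12, -3.34 and -2.05 on the log2 scale, with ratios of 1.29, 1.07 and 1.03. With normexp these were 1.16, 0.93 and 0.88, below 2-fold against WT+DT and WT mice. *Ccnd1*, the cyclin D1 gene, was named after its values were seen and had ratios of 0.83, 0.86 and 0.70. *Birc5*, which encodes survivin and was also named after its values were seen, was at -1.83, -0.28, -2.46 and -0.72. It was 3.33-fold higher in hDTR+DT than in hDTR mice and 2.17-fold higher than in WT mice, but also 2.95-fold higher in WT+DT than in WT mice. Both DT-treated arrays were thus above both untreated ones. Of 6 erythroid markers, 3 were higher by 2-fold or more in WT+DT than in WT mice, and 2 in hDTR+DT than in hDTR mice. The shares of all genes were 1.56% and 2.71%. Against WT+DT mice, 3 of the 6 were lower by 2-fold or more in hDTR+DT mice, beside 1.95% of all genes. The summed signal of the erythroid markers was 65.0, 81.9, 78.0 and 84.3, and their part in the *Birc5* values was not tested. The median of the reported targets was 0.38, 0.32 and 0.45 over the 14 genes measured on both arrays, beside 0.00, 0.01 and -0.02 over all genes. This difference was not tested. The genes with the highest mean signal of each list had ratios from -0.21 to 0.17 for *Ctbp1* and *Csnk1d*, 0.02 to 0.16 for *Notum* and *Vangl1* and 0.11 to 0.34 for *Id2*.

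Macrophage markers were highest in hDTR+DT mice, as were *Wnt2* and *Lgr6*. Among the controls, the summed signal of these markers was highest in WT mice and the *Wnt2* signal in WT+DT mice. All 11 were measured. At 2-fold, 7, 6 and 6 were higher than in hDTR, WT+DT and WT mice, beside 2.71%, 1.52% and 2.11% of all genes. The summed signal of the 11 markers, in units of the 75th percentile of the array, was 18.0 in WT, 17.1 in WT+DT, 15.5 in hDTR and 30.5 in hDTR+DT mice. *Csf1r*, the brightest of them, had ratios of 0.61, 0.48 and 0.40, and *Cd68* of 1.46, 1.21 and 1.26; all 11 were well above background on every array. Neutrophil markers were at 37.5, 58.1, 13.4 and 21.9 in the same order. Their sum was lowest in hDTR mice, as were the macrophage sum and *Wnt2*. Against WT+DT mice, 6 of 7 neutrophil markers were lower by 2-fold or more in hDTR+DT mice, beside 1.95% of all genes. *Wnt2* was higher in that comparison. The part of these cells in the results was not tested.

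The promoters of the pathway genes that were higher than in each other group were read from RefSeq (GRCm38.p6), as these genes share that call, by which they were chosen. In the set of promoters used, *Wnt2* and *Lgr6* had an entry and *Myc* had none, which does not mean that RefSeq lacks *Myc*. The 250 bases before the start of each are given 5′ to 3′ on the strand of the gene, for *Wnt2* chr6:18030446-18030695 and for *Lgr6* chr1:135105277-135105526, both on the minus strand.
Wnt2: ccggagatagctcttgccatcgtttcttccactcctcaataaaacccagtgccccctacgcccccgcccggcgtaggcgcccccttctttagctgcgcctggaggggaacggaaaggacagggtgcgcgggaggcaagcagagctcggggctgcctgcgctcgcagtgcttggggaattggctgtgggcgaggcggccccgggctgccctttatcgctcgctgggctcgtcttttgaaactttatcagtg
Lgr6: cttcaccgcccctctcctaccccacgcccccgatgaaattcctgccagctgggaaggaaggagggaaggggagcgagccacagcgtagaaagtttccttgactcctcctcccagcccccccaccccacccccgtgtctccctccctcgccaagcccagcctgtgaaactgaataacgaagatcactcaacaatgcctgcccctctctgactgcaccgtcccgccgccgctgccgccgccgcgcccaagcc
The core of the TCF and LEF motif, CTTTG, was searched on both strands, as were the longer CTTTGAA and CTTTGAT, which contain it. These letters are not in either window. The core occurred in the same window of 15958 of 32851 promoters (48.6%) and in 22 of 48 promoters of the 38 members with an entry (45.8%). CTTTGAA or CTTTGAT occurred in 7.48% of all promoters and in 3 of the 48.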

How the data were processed

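Labelled cochlear RNA was hybridised to 1-colour Agilent arrays, 1 per group and all 4 on 1 slide. The authors deposited scanner output of Agilent Feature Extraction 11.5.1.1, in which the intensity of each spot is linear, background-subtracted and not scaled between arrays. Their value table is on the scale of that intensity over a constant of its own for each column, with column medians of 0.0865, 0.0853, 0.0828 and 0.0850 and no centring of genes.

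Of 44397 spots, 1377 controls were left out, as were outlier spots, and no spot was saturated. Signals were expressed as multiples of the 75th percentile of their array and taken to log2. Probes well above background made up 67.0%, 62.5%, 70.6% and 62.2% of the probes in WT, WT+DT, hDTR and hDTR+DT mice. The median SD of repeated spots was 0.06 to 0.07 on the log2 scale. The members had 1 spot per probe, and 15 had more than 1 probe. A dim signal was set to the higher of its own value and the lowest signal well above background on its array, and a fold against it is a bound. No fold was given where the bound turned the direction.

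Values on each array were given for *Wnt2*, for members called at 2-fold and for the member with the highest mean signal in each role. They were also given for *Axin2*, *Lef1*, *Nkd1* and *Wnt2b*, and for other pathway genes called against all 3 other groups. For the gene with the highest mean signal in each pathway list, ratios were given. The members and lists were chosen with earlier results of these data known. *Adgre1* and *Cfap52* were found in the files under the older names *Emr1* and *Wdr16*. Alternatives were the floor, filters on dim probes, normexp (limma 3.58.1, offset 50), scaling, the value table, the mean of all probes and a 1.5-fold threshold. Calculations used Python 3.11.15, pandas 2.3.3, numpy 2.4.6 and R 4.3.3, and were tested on simulated arrays.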

Additional observations from a re-analysis of the deposited data

Results flagged for a closer look

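The log2 ratio of treated over untreated mice for *Dkk1* was -0.26 in *Prestin*-*hDTR* and 0.84 in wild-type mice, a difference of -1.10 with opposite signs. The former is about 1 software error (0.23) from 0. The summed signal of 5 osteoblast and osteocyte markers was also highest in WT+DT mice (10.9, 14.2, 9.18 and 6.90), and its part in the *Dkk1* values was not tested. With 1 array per group this difference was not tested.

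Second probes of 3 members, picked out after the values were seen, which the comparisons by brightest probe do not use, were above all other arrays in hDTR+DT mice by more than the spread of the controls and more than 2 software errors of the hDTR+DT spot alone. The gap for *Lrp6* is below 2 errors of the ratio. The gap to the highest control was 0.46 for *Fzd7*, whose brightest probe was also highest there. It was 0.35 for *Lrp6*, whose brightest probe was lowest there.

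For *Tcf7*, which encodes the DNA-binding partner TCF1 of β-catenin, the gap was 0.92. The second probe had log2 signals of -5.77 in WT, -5.49 in WT+DT, -5.08 in hDTR and -4.16 in hDTR+DT mice, and was dim in both wild-type groups. The brightest probe was at -3.10, -3.00, -3.00 and -2.88, so the probes of *Tcf7* differ in the size of the change. None of these differences was tested, and the transcripts each probe detects were not analysed.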

How the results depend on the processing

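No paired analysis was possible because each group had 1 array. The *Wnt2* ratio was above 0 under all settings, from 1.53 to 2.30 against hDTR, 0.95 to 1.33 against WT+DT and 1.01 to 1.64 against WT mice. The lowest values, 1.53, 0.95 and 1.01, came from normexp, whose offset of 50 pulls ratios of dim probes towards 0 by construction. With it 0 members were higher at 2-fold against WT+DT mice and 1 against WT mice (*Rspo2* was lost), 0 against each other group, and *Ror1* was lost in both comparisons between controls (0 and 0 lower). *Ror1* was also lost between WT+DT and WT mice (0 lower) with the filters on 2 or 4 arrays, quantile normalization or the mean of all probes. Between hDTR and WT mice it was lost (0 lower) with the filter on 4 arrays and the mean of all probes. *Wnt3a* was called without the floor, 1 lower in hDTR+DT than in hDTR mice and 1 higher in hDTR than in WT mice, and 1 higher in the latter with quantile normalization. The cause was not tested beyond these constructions. At 1.5-fold, 4 members were higher and 0 lower in hDTR+DT against hDTR mice, 3 and 1 against WT+DT, 3 and 3 against WT mice, and 3 were higher than in each other group (*Rspo2*, *Wnt2* and *Wnt7b*). At 1.5-fold, 1 member was higher and 1 lower in WT+DT over WT mice, and 1 higher and 3 lower in hDTR over WT mice. At 2-fold, the count of all genes in hDTR+DT over hDTR mice ran from 250 to 611 higher and from 129 to 985 lower over the settings, from 127 to 487 and 201 to 562 against WT+DT, and from 182 to 509 and 185 to 879 against WT mice. Between the wild-type groups it ran from 124 to 373 and 43 to 559, and between the untreated groups from 38 to 522 and 98 to 594. Settings for single genes, for roles and for each other group together were chosen after seeing the data.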
